A study of Mus musculus with 2 samples.

Results

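The genes described here encode the subunits of heterotrimeric G proteins and the RGS (regulator of G protein signalling) proteins. They were chosen by symbol among protein-coding genes: the Gα genes Gna and its lettered or numbered relatives, Gnb1 to Gnb5, the Gγ genes Gng and Gngt, and every Rgs gene with a number. The choice used no measured value. It gave 54 genes of 22028 protein-coding and 55536 annotated genes: 16 for Gα, 5 for Gβ, 12 for Gγ and 21 for RGS proteins.

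Total RNA was sequenced from whole left cerebral cortex tissue of male B6CASTF1/J mice, F1 animals of a C57BL/6J by CAST/EiJ cross, at 25 days of age. The labels give no treatment and no engineered allele. They form 1 group of 2 libraries, named replicate 1 and replicate 2, each made from 300 ng of RNA. Both libraries carry the same donor entry but different biobank numbers, so that they come from separate animals is taken from the words biological replicate, and every SD (n = 2) rests on it. With 1 group there was no contrast between conditions. The results are levels, isoform shares and the difference between 2 libraries, without p-values. In bulk tissue fewer cells of a type and less RNA per cell cannot be told apart.

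A heterotrimeric G protein couples a receptor on the cell surface to effectors inside the cell. The activated receptor makes Gα exchange GDP for GTP, after which Gα and the paired Gβγ each act on effectors, and the signal ends when Gα hydrolyses its GTP. RGS proteins speed up that hydrolysis. In the cortex these proteins carry the signals of dopamine, acetylcholine, noradrenaline, serotonin, opioid, cannabinoid and metabotropic glutamate receptors. The Gα classes differ in effector: Gs raises cyclic AMP, Gi/o lowers it and releases Gβγ that opens potassium channels, Gq activates phospholipase C, and G12/13 acts on the actin cytoskeleton.

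The coding ends of the Gα genes are shown because the last residues of Gα contact the receptor, and because the codon in capitals, the fourth from the last amino acid, is the cysteine that pertussis toxin modifies in most of the Gi/o class. Each line holds the last 12 codons and the stop codon of the named transcript, 5′ to 3′, from the GENCODE M21 transcripts on mm10. The Gnas stretch is at chr2:174346350-174346388 on the plus strand, that of Gnao1-201 at chr8:93967017-93967055 and that of Gnao1-207 at chr8:93956214-93956252, both also on the plus strand.
Gnas-208: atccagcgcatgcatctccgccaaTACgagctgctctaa
Gnao1-201: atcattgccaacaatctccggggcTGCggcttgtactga
Gnao1-207: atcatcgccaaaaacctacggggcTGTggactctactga
Gnai1-201: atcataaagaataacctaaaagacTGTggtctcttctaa
Gnai2-201: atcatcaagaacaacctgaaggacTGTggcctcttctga
Gnai3-201: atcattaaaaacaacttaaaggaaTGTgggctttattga
Gnaz-201: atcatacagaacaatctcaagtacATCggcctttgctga
Gnaq-201: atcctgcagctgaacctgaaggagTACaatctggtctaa
Gna11-201: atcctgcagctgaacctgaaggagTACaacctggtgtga
Gna12-201: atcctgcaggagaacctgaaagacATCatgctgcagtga
Gna13-201: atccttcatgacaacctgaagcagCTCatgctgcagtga

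A cysteine codon, TGT or TGC, stands at that place in 7 of the 16 Gα genes: Gnao1, Gnai1, Gnai2, Gnai3 and the transducin genes Gnat1, Gnat2 and Gnat3. Of the Gi/o class Gnaz alone lacks it. The 7 genes summed to 504 TPM in replicate 1 and 509 in replicate 2, which was 32.4% ± 0.16 (SD, n = 2) of all Gα TPM, and 4 of them reached 1 TPM. TPM, a level per transcript length on a fixed total per library, is corrected for length so that genes can be set side by side. The level of some genes still depended on the program, as given below for the Gγ genes. The second transcript table, made from the same libraries by another program, put the share at 35.7% ± 0.63 (SD, n = 2).

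The coding ends of the Gγ genes are shown because they encode the CaaX box, the last 4 residues, in capitals, where the protein receives the lipid that holds Gβγ at the membrane. Leucine as the last residue is known to direct a geranylgeranyl group, and serine a farnesyl group. Each line holds the last 8 codons and the stop codon. The Gng2 stretch is at chr14:19875807-19875833 on the minus strand and that of Gng13 at chr17:25719006-25719032 on the plus strand of mm10.
Gng2-204: aagaagttcttcTGCGCCATCCTTtaa
Gng3-201: aagaagttcttcTGTGCGCTCCTCtga
Gng13-201: gagaaggccaagTGCACCATCCTAtga
Gng7-204: gacaaaaagcctTGCATAATTCTCtag
Gng5-201: ccccagaaagtcTGCTCCTTTTTGtag
Gng11-201: gaaaagggcagcTGTGTCATTTCAtaa
Gngt2-204: gagaaaggcactTGTGTGCTAAGCtga
Gngt1-201: ctcaaaggaggcTGTGTGATTTCAtag

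The 9 Gγ genes whose last codon is for leucine held 98.7% ± 0.06 (SD, n = 2) of Gγ TPM. The 3 with serine, Gng11, Gngt1 and Gngt2, held 1.33% ± 0.06 (SD, n = 2), or 2.16% ± 0.08 in the second transcript table. Whether the proteins carry the lipid was not measured.

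The libraries held 30503944 and 33263801 expected counts, of which 151319 and 167819 fell on the 54 genes. These genes made up 0.341% and 0.340% of the TPM of annotated genes. Defining markers of neurons were abundant in both libraries: 4 of 4 were detected, with summed levels of 2330 and 2261 TPM. The libraries did differ in other marker lists: the summed TPM was 21.8 and 197.8 for 4 choroid plexus genes, 548 and 320.1 for 9 immediate early genes, 479 and 642 for 4 oligodendrocyte genes, and 1030.3 and 727 for 5 red blood cell genes, in replicate 1 and replicate 2.

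Most of the family was expressed in the cortex. Of the 54 genes, 42 reached 1 TPM in both libraries, against 58.2% of all protein-coding genes, and 37 had a mean of at least 10 TPM, against 36.8%. By family the genes at 1 TPM or more were 11 of 16 for Gα, 4 of 5 for Gβ, 11 of 12 for Gγ and 16 of 21 for RGS proteins. The Gα genes summed to 1559 and 1563 TPM, the Gβ genes to 777 and 787, the Gγ genes to 428 and 434, and the RGS genes to 618 and 595. Gα RNA was 2.00 ± 0.014 times Gβ RNA (SD, n = 2) and 3.62 ± 0.035 times Gγ RNA. The first of these ratios was 2.00 ± 0.017 in the second transcript table as well, whereas the ratio to Gγ was 5.58 ± 0.50 there. All these sums count every transcript of a gene, coding or not. The Gβ sum of 777 and 787 TPM includes 139.8 and 133.0 TPM of Gnb2 transcripts that keep an intron.

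**Figure D1:**
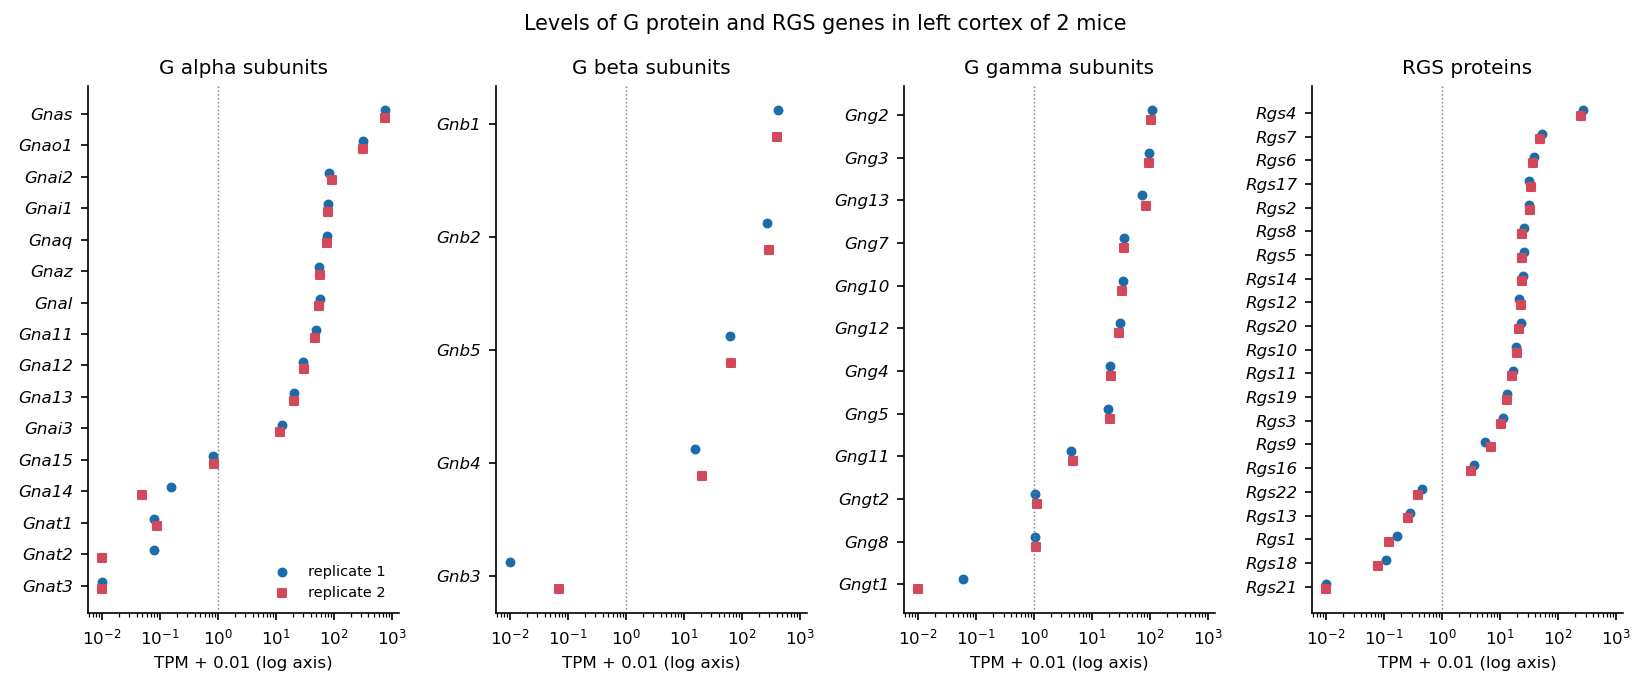
Level of each of the 54 genes in TPM + 0.01 on a log axis, by family, with circles for replicate 1 and squares for replicate 2; the dotted line marks 1 TPM. Levels run from 0 for Gnat3 and Rgs21 to 764 TPM for Gnas, and the libraries lie close together for the genes above 1 TPM.

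Among the Gα genes Gnas led by a wide margin. Gnas (ENSMUSG00000027523.19, chromosome 2, 174284320 to 174346744, plus strand), which encodes the Gαs that stimulates adenylyl cyclase, stood at 764 TPM in replicate 1 and 762 in replicate 2, rank 36 among protein-coding genes. Gnao1 (ENSMUSG00000031748.16, chromosome 8, 93809966 to 93969388), the Gαo that is the main partner of inhibitory receptors in neurons, followed at 325 and 322 TPM, rank 144. Gnas and Gnao1 held 48.9% ± 0.19 and 20.7% ± 0.13 (SD, n = 2) of Gα TPM. By class, Gs genes held 52.5% ± 0.26, Gi/o genes 36.1% ± 0.25, Gq genes 8.10% ± 0.08 and G12/13 genes 3.28% ± 0.09.

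The other Gα genes of the inhibitory class were Gnai2 at 84.7 and 93.7 TPM, Gnai1 at 81.6 and 80.5, Gnaz at 56.1 and 58.2 and Gnai3 at 13.1 and 12.1. Their order by gene TPM was the same in both libraries. Over protein-coding transcripts alone Gnai2 was below Gnai1 in replicate 1, at 79.2 against 81.6 TPM. In replicate 2 Gnai2 was above Gnai1 there, at 87.6 against 80.5 TPM. Gnai1, Gnai2 and Gnai3 encode the inhibitors of adenylyl cyclase found in many tissues, and Gnaz a slow GTPase of neurons and platelets. Gnai3 was the lowest of the 5 detected genes of its class, below Gnai1 and Gnai2 in each library.

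Gnal, the Gαolf of olfactory and striatal neurons that also stimulates adenylyl cyclase, stood at 57.2 and 55.8 TPM, and its levels overlapped those of Gnaz. A processed transcript held 28.8% ± 0.19 (SD, n = 2) of Gnaz TPM. Over protein-coding transcripts alone Gnaz stood at 39.9 and 41.5 TPM, without overlap with Gnal at 57.2 and 55.8. The Gq genes, whose products activate phospholipase Cβ, were Gnaq at 77.4 and 77.9 TPM and Gna11 at 48.9 and 46.9. Gna12 was at 29.3 and 31.5 TPM and Gna13 at 20.89 and 20.85. In each of these pairs the libraries kept the genes apart without overlap.

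Several Gα genes lie near a relative in the genome, and in each such pair 1 gene was expressed and its neighbour was below 1 TPM in the gene table. In the second transcript table Gna15 passed that level, at 1.63 and 2.19 TPM. Gna11 stood at 47.9 ± 1.39 TPM (SD, n = 2), and Gna15, the promiscuous Gα of blood cells whose gene lies 4.5 kb away on chromosome 10, at 0.845 ± 0.021. Gnai3 stood at 12.6 ± 0.67 TPM and the cone transducin gene Gnat2, 5.85 kb away on chromosome 3, at 0.035 ± 0.049. Gnai2 stood at 89.2 ± 6.36 TPM and the rod transducin gene Gnat1, 39.1 kb away on chromosome 9 with 1 other coding gene between them, at 0.075 ± 0.0071. Gnaq was at 77.6 ± 0.35 TPM beside Gna14 at 0.095 ± 0.078, 48.3 kb away on chromosome 19. Gnai1 was at 81.1 ± 0.78 TPM, while the taste gene Gnat3, 245 kb away on chromosome 5, had a count of 0 in both libraries.

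The 4 low neighbours Gna14, Gnat1, Gnat2 and Gnat3 had between 0 and 5 counts per library, and their levels overlapped. A count of 0 allows up to 3 counts, which for these libraries is 0.098 CPM (counts scaled to a fixed library total) in replicate 1 and 0.090 in replicate 2. Such limits, and every counting interval given here, cover counting error only, since the reads carried no label for single molecules and copies of 1 molecule cannot be told from separate ones.

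Gnas RNA came mostly from the start that makes Gαs. The locus also has starts for Nesp55, XLαs and the exon 1A transcripts, and is known for imprinting of these starts. Transcripts of the Gαs start held 93.8% ± 0.02 (SD, n = 2) of Gnas TPM. Those of exon 1A held 5.49% ± 0.01, those of the Nesp start 0.158% ± 0.020 and those of the XL start 0.0066% ± 0.0037. The second transcript table gave exon 1A 21.2% ± 1.72 and the Gαs start 77.8% ± 1.92, so the size of the exon 1A share depends on the table. The tables hold no counts by parental allele.

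A 45-base exon separates the long and short forms of Gαs. It is shown because the split between them is the main isoform choice of the most abundant gene, at chr2:174336747-174336791 on the plus strand, in capitals with the flanking bases of the spliced transcript in lower case.
Gnas 45-base exon: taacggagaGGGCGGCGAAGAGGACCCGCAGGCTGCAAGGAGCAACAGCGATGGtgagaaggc

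Gnas-208, which includes the exon, stood at 419 TPM in replicate 1 and 416 in replicate 2. Gnas-206 and Gnas-207, which skip it, summed to 247 and 245.0 TPM. The long form thus held 54.7% ± 0.17 (SD, n = 2) of Gnas TPM and the short form 32.2% ± 0.11. Their order was the same in the second transcript table, at 49.6% ± 0.69 and 26.7% ± 1.57.

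Gnao1 makes 2 forms of Gαo that differ in their last coding exons. Both coding parts have 1062 bases, and 88 bases and 68 of 354 codons differ between them, from codon 246 on. The 2 transcripts with the coding part of Gnao1-201 summed to 221 and 223 TPM, and Gnao1-207 at 35.3 and 31.6 TPM. Their shares of Gnao1 TPM were 68.7% ± 0.82 and 10.3% ± 0.76 (SD, n = 2). In the second transcript table they were 45.6% ± 1.05 and 7.12% ± 0.46, with 47.3% ± 0.59 on transcripts without a full coding part. As the coding ends above show, both forms carry the cysteine codon.

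Gnal has a longer coding form of 1344 bases and a shorter form of 1143 bases. The longer form held 58.3% ± 0.43 (SD, n = 2) of Gnal TPM and the shorter 38.7% ± 0.40. The order held in the second transcript table, at 51.7% ± 0.17 and 45.3% ± 0.67.

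The Gβ genes encode the propeller-shaped subunit that stays bound to Gγ. Gnb1 (ENSMUSG00000029064.15, chromosome 4, 155491361 to 155559269, plus strand) stood at 422 TPM in replicate 1 and 401 in replicate 2, rank 92 among protein-coding genes, and Gnb2 at 276 and 299. Gnb1 held 52.6% ± 2.35 (SD, n = 2) of Gβ TPM and Gnb2 36.7% ± 1.77. Gnb5, the Gβ that pairs with R7 RGS proteins instead of Gγ, stood at 63.7 and 66.2 TPM. Gnb4 was at 15.7 and 20.6 TPM, and Gnb3, the Gβ of cones and taste cells, had counts of 0 and 1.

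The distance between Gnb1 and Gnb2 depended on which transcripts were summed. Retained-intron transcripts, which keep an intron and have no annotated coding part, held 47.6% ± 4.36 (SD, n = 2) of Gnb2 TPM and 8.25% ± 1.92 of Gnb1 TPM. Over protein-coding transcripts alone Gnb1 held 63.9% of Gβ TPM, and the second transcript table gave it 62.6% ± 2.72. The latter put 16.9% ± 2.19 of Gnb2 on retained-intron transcripts.

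Gnb5 codes for a short form of 1059 bases, the form widespread in brain, and a long form of 1185 bases known from photoreceptors. The first transcript table put 86.5% ± 4.10 (SD, n = 2) of Gnb5 TPM on the short form and 2.80% ± 3.96 on the long one. The second table put 39.4% ± 1.51 and 40.3% ± 0.68 there. The tables therefore disagree on the long form of Gnb5, and what sets them apart was not tested.

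Gγ RNA was divided more evenly than Gα or Gβ RNA. Gng2 (ENSMUSG00000043004.13, chromosome 14, 19872559 to 19977627, minus strand) stood at 109.0 TPM in replicate 1 and 103 in replicate 2, Gng3 at 95.8 and 97.6, and Gng13 at 74.2 and 85.6. Gng2 and Gng3 encode the commonest Gγ partners in brain neurons, and Gng13 is known from taste cells, retinal bipolar cells and neurons. Together these 3 genes led the family in both libraries, with no overlap between neighbours in the order of the gene table. Their shares of Gγ TPM were 24.7% ± 1.18, 22.4% ± 0.05 and 18.5% ± 1.68 (SD, n = 2).

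Below them were Gng7, the partner of Gαolf in striatal neurons, at 36.5 and 36.6 TPM, Gng10 at 34.6 and 33.02, and Gng12 at 31.2 and 29.3. Gng4 stood at 20.7 and 21.2 TPM and Gng5 at 19.2 and 20.7. Gng11 was at 4.42 and 4.82 TPM. Gngt2, the Gγ of cones, and Gng8, the Gγ of immature olfactory neurons, overlapped near the threshold at 1.02 and 1.14 TPM and at 1.04 and 1.09 TPM. Gng10 had counts of 741.78 and 783.56, which were not whole in either library, and Gng5 had 200.92 in replicate 1, so some of their reads were shared with other genes and their levels are uncertain.

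Gγ levels also depended on the quantification. A gene's ratio of second-table to first-table TPM, divided by the median ratio of protein-coding genes (1.57 and 1.58), was 0.414 ± 0.179 (SD, n = 2) for Gng13, 0.588 ± 0.011 for Gng2 and 0.664 ± 0.017 for Gng12, but 1.32 ± 0.12 for Gng5. In the second table Gng3 led with 23.7% ± 0.28 of Gγ TPM, and Gng2 held 20.3% ± 2.04. Gng7 was the third there with 13.1% ± 0.34, above Gng13 with 10.7% ± 4.83. Gng13 rested on 376 and 488 expected counts, 2.95% ± 0.31 of the counts of the family, placed almost wholly on a transcript of 347 bases. The order of Gng2 and Gng3, and the place of Gng13 among the leading 3, thus depended on the table.

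**Figure D2:**
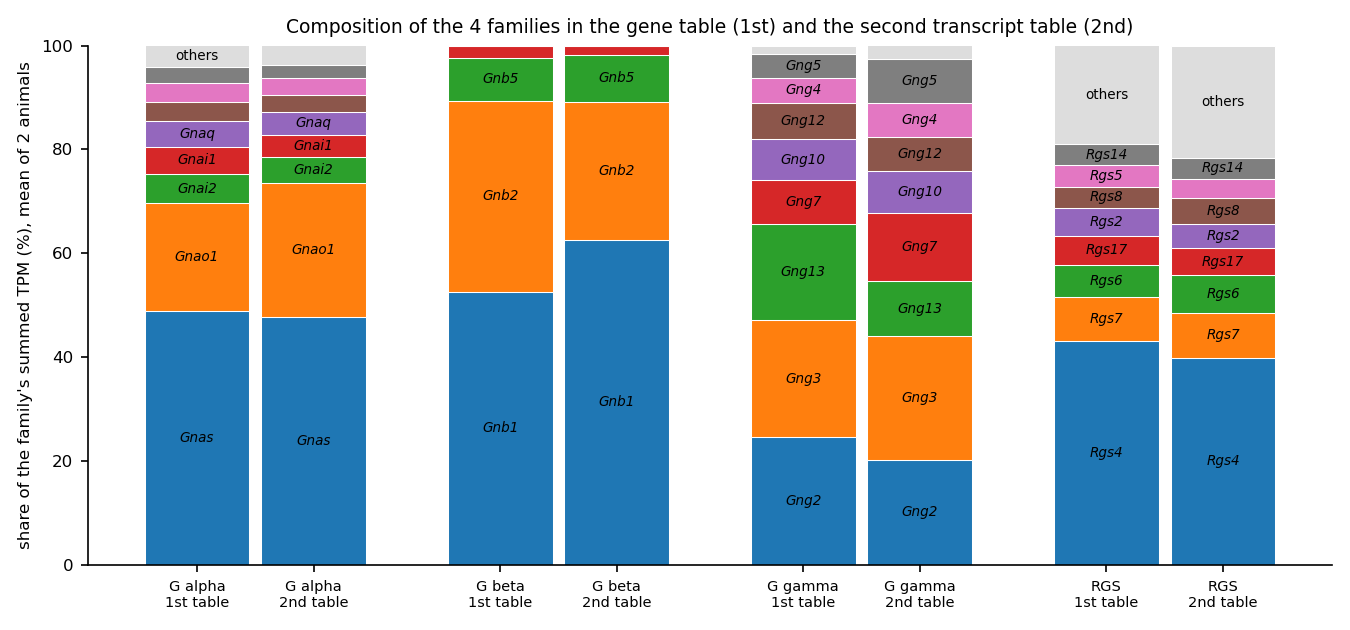
Stacked shares of each family's summed TPM, mean of 2 libraries, in the gene table (1st) and the second transcript table (2nd); light grey tops sum the members after the leading 8. Gnas leads Gα in both tables at 48.9% and 47.8%, while the Gγ lead passes from Gng2 to Gng3 and the Gng13 share is 18.5% in one table and 10.7% in the other.

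Among the RGS genes Rgs4 was far above the rest. Rgs4 (ENSMUSG00000038530.11, chromosome 1, 169741477 to 169747642, minus strand), a small RGS protein of cortical neurons that acts on Gi/o and Gq, stood at 270.4 TPM in replicate 1 and 253 in replicate 2, rank 212 among protein-coding genes. It held 43.1% ± 0.83 (SD, n = 2) of all RGS TPM, and a single transcript, Rgs4-201, held 98.7% ± 0.80 of its TPM. By subfamily, R4 genes held 59.3% ± 0.88 of RGS TPM, R7 genes 18.4% ± 0.20, RZ genes 11.3% ± 0.24 and R12 genes 10.9% ± 0.43.

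The other R4 genes, which mostly encode little more than the RGS domain, were far lower. Rgs2, which acts mainly on Gq, stood at 31.7 and 33.5 TPM, Rgs8 at 26.4 and 24.4 TPM and Rgs5, known from pericytes as well as neurons, at 26.2 and 23.8. Rgs3 was at 11.5 and 10.6 TPM, with a count of 544.82 in replicate 2 that was not whole, and Rgs16 at 3.57 and 3.11. The ranges of Rgs8 and Rgs5 overlapped. Mural cell markers, with 4 of 5 genes detected, summed to 46.6 and 45.6 TPM, and their part in the level of Rgs5 was not tested.

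Rgs2 and Rgs4 are known to respond to neuronal activity. All 9 listed immediate early genes were lower in replicate 2, and the median of their log2 differences was -0.75. The log2 difference of Rgs4 was -0.09 and that of Rgs2 was 0.08, or -0.04 with TMM-scaled counts. The part of neuronal activity in either difference was not tested.

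R7 RGS proteins carry a domain that binds Gβ5 and act on Gi/o. Rgs7 stood at 52.5 and 50 TPM, Rgs6 at 38.2 and 37.5, and Rgs11 at 16.8 and 16.0. Rgs9, known for its striatal and retinal forms, was the lowest by gene TPM, at 5.6 and 7 TPM. Over protein-coding transcripts alone Rgs11 was lower, at 0 and 0.70 TPM, against 5.18 and 7.01 for Rgs9. The 4 genes summed to 1.72 ± 0.075 times Gnb5 (SD, n = 2), or 1.5 ± 0.17 times in the second transcript table. Both sums count all transcripts of Rgs11. Rgs7bp, the membrane anchor of R7 complexes, was at 70.5 ± 1.33 TPM and the R7-binding receptor gene Gpr158 at 53.6 ± 3.44, while Rgs9bp, the anchor of retinal Rgs9, was at 0.28 ± 0.10.

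The RZ genes were Rgs17 at 32.2 and 33.8 TPM, Rgs20 at 23.2 and 21.3 and Rgs19 at 13.5 and 13.2. Their products prefer Gαz and other Gi/o proteins, and Gnaz itself stood at 57.2 ± 1.48 TPM. The R12 genes were Rgs14 at 24.6 and 24.3 TPM, Rgs12 at 21.8 and 22.8 and Rgs10 at 19.3 and 19.7. Rgs12 and Rgs14 encode large scaffolds that also bind inactive Gαi, and Rgs10 is a small RGS protein of microglia and neurons. All 5 microglial markers were detected, with summed levels of 130.3 and 128.8 TPM, and their part in the level of Rgs10 was not tested. The levels of Rgs17 and Rgs2 overlapped, as did those of Rgs5 and Rgs14 and those of Rgs12 and Rgs20.

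By gene TPM 5 of the RGS genes were below 1 TPM in both libraries. Rgs22, known from testis, was at 0.44 and 0.38 TPM with 33 and 32 counts. Rgs1, Rgs13 and Rgs18, known from lymphocytes, B cells and platelets, were at 0.07 to 0.27 TPM with between 3 and 8 counts per library, and Rgs21 had a count of 0 in both. None of the 6 leukocyte markers was detected, with summed levels of 0.51 and 0.72 TPM and Nkg7 and Ly6g at 0. By gene TPM 12 of the 54 genes were below 1 TPM in both libraries: these 5, the Gα genes Gna14, Gna15, Gnat1, Gnat2 and Gnat3, Gnb3 and Gngt1, the rod Gγ with counts of 1 and 0.

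Rgs2, Rgs13, Rgs1, Rgs21 and Rgs18 are neighbours on chromosome 1, with gaps of 134 kb, 64.9 kb, 267 kb and 185 kb and no other coding gene between them. Rgs2 stood at 32.6 ± 1.23 TPM (SD, n = 2), and the 4 others at 0 to 0.27 TPM. Rgs4 and Rgs5 lie 45.7 kb apart on opposite strands of the same chromosome, and Rgs8 and Rgs16 40.03 kb apart. Gng11 stood at 4.62 ± 0.28 TPM and its neighbour Gngt1, 6.47 kb away on chromosome 6, at 0.025 ± 0.035. These RGS and Gγ neighbours were looked up after their levels had been seen.

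Not all RNA of these genes was of a coding type. For the 37 genes with at least 10 TPM the median share of TPM on protein-coding transcripts was 96.1%, 27 genes had at least 90% and 3 had under 50%. The 3 were Rgs11 at 2.19% ± 3.10 (SD, n = 2), Gnb4 at 27.8% ± 5.85 and Rgs3 at 44.7% ± 5.24. In the second transcript table the median was 96.5% and 2 genes were under 50%. The same shares were not taken over all protein-coding genes, so whether they are particular to this family is not known.

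Rgs11 was the extreme case. Its retained-intron transcripts held 95.1% ± 0.69 (SD, n = 2) of its TPM, and 92.9% ± 0.27 in the second transcript table, so its level of 16.4 ± 0.57 TPM says little about mRNA for the protein. Coding transcripts of Rgs11 stood at 0 TPM in replicate 1 and 0.70 in replicate 2. Rgs3 had 43.1% ± 3.34 on retained-intron transcripts and 46.0% ± 3.81 in the second table. Rgs2 had 31.8% ± 3.12 on a transcript annotated for nonsense-mediated decay, and 44.3% ± 0.20 there. The Rgs3 shares overlapped between the tables, those of Rgs11 were over 90% in both, and that of Rgs2 was higher in the second table in both libraries.

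For Gnb4 and Gng10 the tables lay further apart. Retained-intron transcripts held 70.5% ± 6.20 (SD, n = 2) of Gnb4 TPM in the first table and 29.1% ± 2.56 in the second. A processed transcript held 30.2% ± 8.19 of Gng10 TPM in the first table and 0% in the second. Of the 34 genes with several transcripts, 25 had the same leading transcript in both tables, and 9 had a leading transcript with under 50% of the TPM. These counts too were not taken over all protein-coding genes. Whether the counting used the strand of the reads is not given in the sources used here, so reads of overlapping genes on the other strand cannot be set apart.

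**Figure D3:**
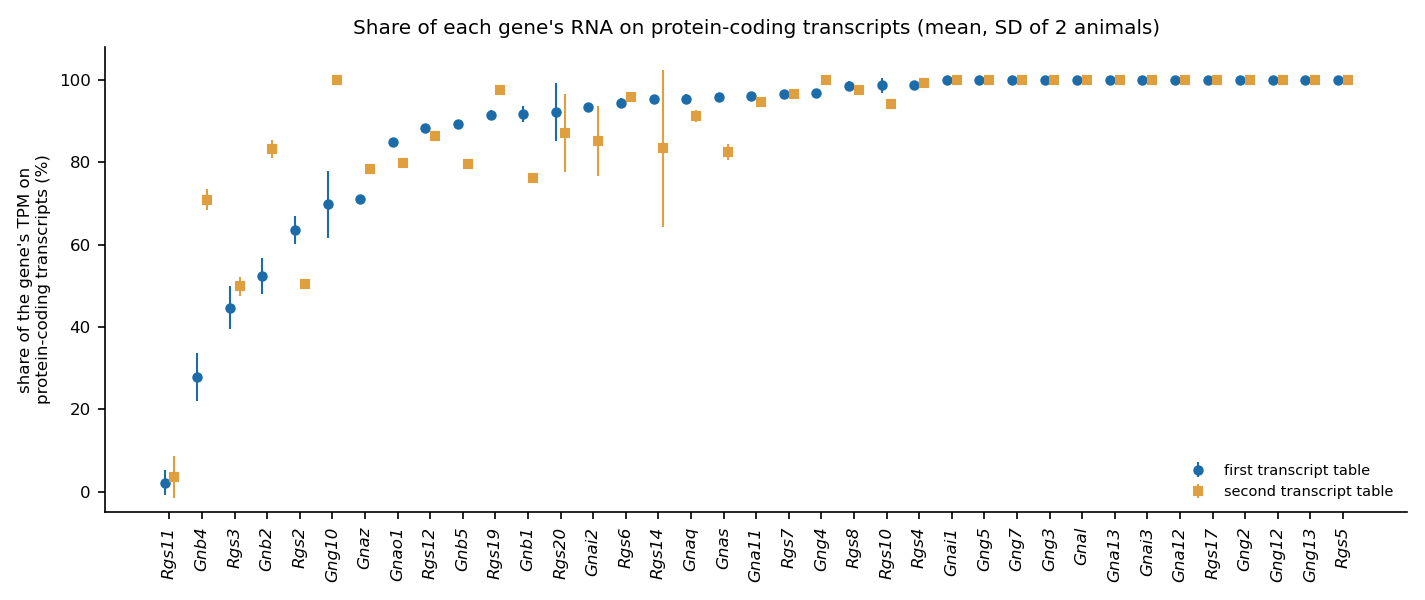
Share of each gene's TPM on protein-coding transcripts for the 37 genes with a mean of at least 10 TPM, as mean and SD of 2 libraries, with circles for the first transcript table and squares for the second. Rgs11 is near 0 in both tables, Gnb4 and Gnb2 lie lower in the first table than in the second, and 27 genes in the first and 23 in the second reach 90%.

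Several RGS genes make proteins of different length. Rgs7 was split over coding parts of 1410 bases with 49.4% ± 1.54 (SD, n = 2) of its TPM, 1431 bases with 31.6% ± 2.09 and 1407 bases with 14.8% ± 0.28, and the second table kept this order. Rgs12 transcripts with a coding part of over 4 kb, the longest forms, held 14.8% ± 0.36, against 65.1% ± 1.04 for those of 2 to 4 kb. Rgs20 had 65.9% ± 6.79 on a coding part of 717 bases and 23.0% ± 1.53 on one of 624 bases. Rgs6 had 22 transcripts, and the leading one, Rgs6-208, held 38.9% ± 0.79. Rgs10-201 and Rgs14-201 were single leading forms in the first table, with 91.1% ± 1.60 and 95.3% ± 0.18. In the second table they held 72.7% ± 2.35 and 83.4% ± 19.1. The share of Rgs14-201 was 69.9% in replicate 1 and 96.9% in replicate 2 there. The Rgs12 forms of over 4 kb and of 2 to 4 kb held 13.96% ± 0.38 and 46.9% ± 2.18 there. The Rgs20 forms of 717 and 624 bases held 47.3% ± 1.83 and 23.9% ± 5.71, and Rgs6-208 31.4% ± 3.72. Several of these shares thus depended on the table.

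**Figure D4:**
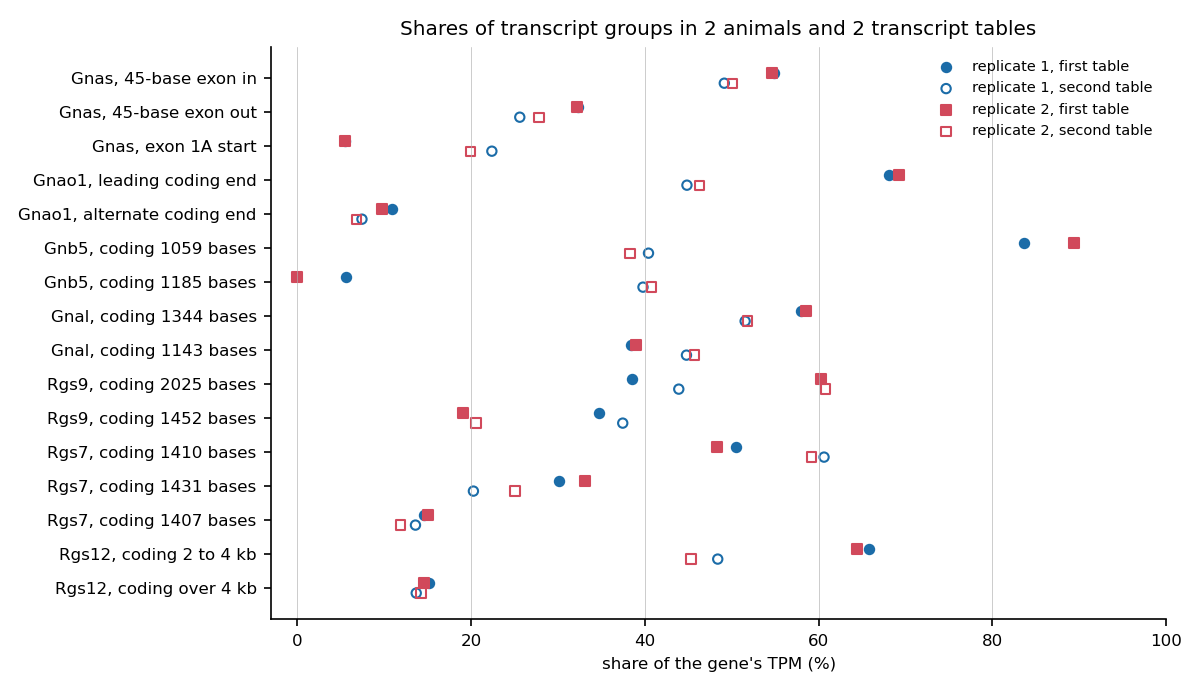
Share of a gene's TPM on groups of its transcripts, with circles for replicate 1 and squares for replicate 2, filled for the first transcript table and open for the second. The Gnas and Gnal forms keep their order in both tables, the Gnb5 forms do not, and the 2025-base form of Rgs9 is higher in replicate 2 in both tables.

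In the gene table the differences between the libraries were small for these genes. Of the 44 genes whose expected counts averaged 10 or more, 0 were over 1.5-fold apart in TPM, against 2.35% of all protein-coding genes. With 44 genes a count of 0 is near that share. Differences are log2 of TPM + 0.5 in replicate 2 over replicate 1, and ran from -0.17 for Rgs16 to 0.38 for Gnb4. The genes higher in replicate 2 were 21 of 44, against 43.0% of protein-coding genes, and their median difference was -0.0037, against -0.022. The median size of the difference was 0.069, against 0.101 over all protein-coding genes that passed the same minimum. The sets were not matched by level: 37 of the 54 genes averaged at least 10 TPM, against 36.8% of all protein-coding genes. The count of higher genes depended on the scaling: it was 30 of 44 with TMM-scaled counts and 42 of 44 with spike-in scaling. The 43.0% cannot be set beside these counts, because scaling also moves the median of all protein-coding genes. That median was 0.015 with TMM and 0.16 with spike-in scaling, against 0.024 and 0.17 for the 44 genes.

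Of the 44 genes 2 had a log2 difference over 0.2 in size and a counting interval that left out 0, against 9.14% of protein-coding genes. The first, Rgs9 (ENSMUSG00000020599.13, chromosome 11, 109225355 to 109298129, minus strand), had 248 counts in replicate 1 and 370 in replicate 2. Its difference was 0.30 in TPM and 0.45 in TMM-scaled counts, with a 95% counting interval of 0.22 to 0.69, and 0.34 in the second table. With spike-in scaling it was 0.60, which is over 1.5-fold.

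The Rgs9 difference lay in the long form. The transcript with a coding part of 2025 bases, which encodes the long striatal protein, stood at 2.16 TPM in replicate 1 and 4.23 in replicate 2. The form of 1452 bases, known from the retina, stood at 1.95 and 1.34 TPM. The long form held 38.5% and 60.3% of Rgs9 TPM in replicate 1 and replicate 2, and 43.9% and 60.8% in the second table. Striatal neuron markers, with 5 of 8 genes detected and none at 0 in both libraries, summed to 142 and 145 TPM. Of the 7 with enough counts, 5 were higher and 2 lower in replicate 2, and the median log2 difference was 0.14. Drd2, at 0.65 and 1 TPM, was the 1 marker with a difference over 0.2 and an interval that left out 0; Penk stood at 30.2 and 33.4 TPM, Drd1 at 9.03 and 10.4 and Ppp1r1b at 62.2 and 61.8. Their part in the Rgs9 difference was not tested.

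The second, Gng13, had a log2 difference of 0.21 in TPM, with a counting interval of 0.06 to 0.45 on TMM-scaled counts. In the second transcript table it stood at 33.4 TPM in replicate 1 and 73.1 in replicate 2, a log2 difference of 1.12. There Gng13-201 was listed at 0 in replicate 1 and at 48.0 TPM in replicate 2, whereas the first table gave it 73.4 and 84.5 TPM. The size of the Gng13 difference thus depended on the table, and what sets the tables apart was not tested.

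Gnb4 had the highest TPM difference of the 44 genes, 0.38, but its counts differed less. They were 853 and 1004, a TMM-scaled difference of 0.11 with a counting interval of -0.02 to 0.24. Its retained-intron transcript Gnb4-207, of 728 bases, stood at 4.73 and 9.58 TPM, and its coding transcripts summed to 5.01 and 4.87 TPM. The coding RNA of Gnb4 was thus nearly level between the libraries in the first table.

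**Figure D5:**
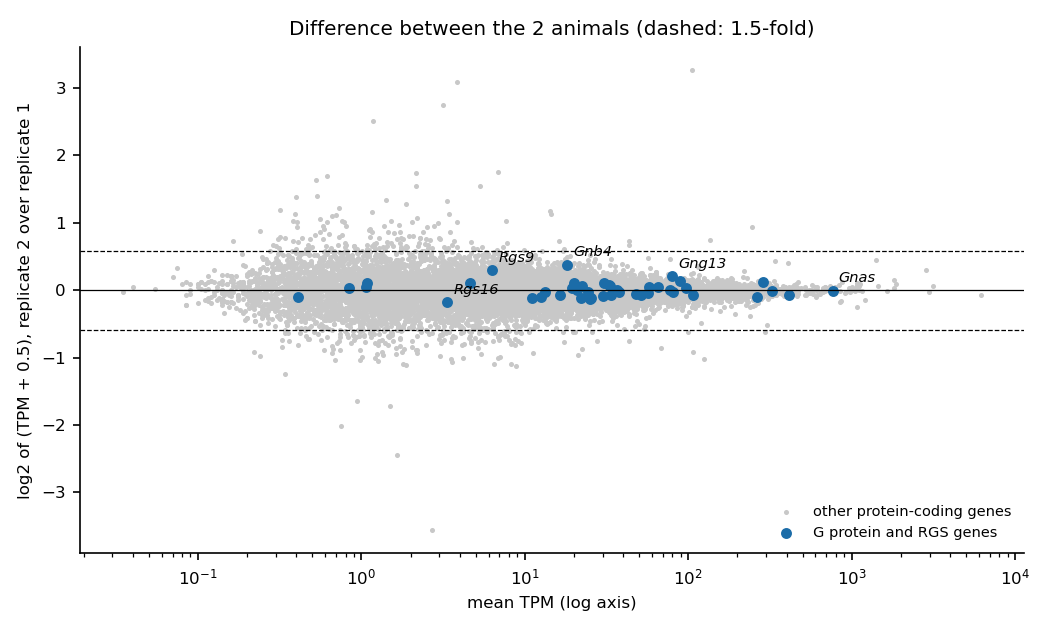
Log2 of TPM + 0.5 in replicate 2 over replicate 1 against mean TPM on a log axis, for protein-coding genes whose expected counts averaged 10 or more; the dashed lines mark 1.5-fold. The 44 G protein and RGS genes lie between -0.17 and 0.38, inside both lines.

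Other genes of the pathway, listed by role, were mostly expressed too. Of 50 such genes 40 reached 1 TPM in both libraries and 47 passed the minimum of expected counts. Of these 47, 15 were higher in replicate 2, against 43.0% of protein-coding genes, and 32 were lower. Their median log2 difference was -0.068, against -0.022. With TMM-scaled counts 20 were higher and with spike-in scaling 41. The 43.0% holds for TPM alone and cannot be set beside these counts. The difference was over 0.2 in size with a counting interval that left out 0 for 5 of them, Rgs9bp, Rasd1, Kcnj3, Kcnj6 and Kalrn, all lower in replicate 2, against 9.14% of protein-coding genes. Grk4, a receptor kinase, was the 1 gene over 1.5-fold apart, against 2.35%, at 2.00 and 0.92 TPM, with a counting interval that did not leave out 0.

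By role, the regulators had 12 of 18 genes detected, the receptor kinases and arrestins 6 of 8 and the effectors 22 of 24. Grk2, the kinase that phosphorylates active receptors and binds Gβγ, stood at 97.8 ± 4.02 TPM (SD, n = 2) and Arrb1, the arrestin that then binds them, at 77.9 ± 1.01. Adcy1, the calcium-stimulated adenylyl cyclase, was at 120.4 ± 6.92 TPM and Plcb1, the phospholipase downstream of Gq, at 82.1 ± 5.03. The Gβγ-gated potassium channel genes Kcnj9, Kcnj3 and Kcnj6 were at 61.5 ± 0.90, 44.7 ± 4.62 and 40.7 ± 4.24 TPM. Kcnj3 was at 48.0 and 41.5 TPM and Kcnj6 at 43.7 and 37.7, so that the TPM of both channel genes was lower in replicate 2. Ric8a and Ric8b, the chaperones that fold Gα, were at 32.4 ± 2.55 and 21.3 ± 0.13 TPM.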

How the data were processed

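Quantifications deposited by the authors used the mm10 assembly and the GENCODE M21 genes. Per the file headers, 1 program, with RSEM's column names, gave expected counts and TPM by gene and by transcript (the first table), and another, with kallisto's, gave estimated counts and TPM by transcript (the second). The deposited TPM of all features of a file sum to a fixed total, so abundant short RNAs lower every other gene. Aligner and versions: not given in the sources used here. Numbered features that name no gene held 2.3e-05% and 3.0e-05% of expected counts and were left out.

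Levels are TPM per library with mean and SD (n = 2), and a gene was detected at 1 TPM in both. Differences are log2 of TPM + 0.5, for genes averaging 10 expected counts or more. Counting intervals are exact binomial 95% intervals of counts rounded to whole numbers and scaled by TMM (edgeR 4.0.16, with DESeq2 1.42.0 size factors and spike-ins as alternatives, R 4.3.3, Python 3.11.15, scipy 1.17.1). Neither edgeR nor DESeq2 was used for a test. On simulated counts, scored over 11824 genes averaging 100 counts or more, of 200 genes changed 2-fold, 197 were over 1.5-fold apart, as was 1 of 11624 unchanged genes, and the intervals held the simulated difference for 94.7% of genes. Genes with fewer counts were not scored. The simulated counts were drawn with counting error alone (Poisson), so this check says nothing about variation between animals or copied molecules.

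Both values were printed for genes with a mean of at least 10 TPM, for genes whose difference was over 0.2 with an interval leaving out 0, and for a list of isoform genes. The members and lists were chosen with earlier results of these data known. A comparison of protein ends was planned, and codons of the GENCODE M21 transcripts were used instead.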

Additional observations from a re-analysis of the deposited data

How the results depend on the processing

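The 42 detected genes became 43 at 0.5 TPM and 38 at 5 TPM, and stayed at 42 to 42 with either library left out. They were also 43 in the second transcript table, by posterior mean TPM and by TPM of protein-coding genes alone. The count over 1.5-fold apart was 0, but 1 with spike-in scaling (Rgs9) and 1 in the second transcript table (Gng13). The median log2 difference moved to 0.17 with spike-in scaling. The Gnas share, 48.9% of Gα TPM, was 48.8% to 49.0% in single libraries, 47.8% in the second transcript table, 32.1% of expected counts and 50.3% over protein-coding transcripts. The Gnb1 share, 52.6%, was 51.0% to 54.3%, and 62.6%, 70.2% and 63.9% under the same 3 alternatives. The Gng2 share, 24.7%, was 23.8% to 25.5%, then 20.3% in the second table and 33.1% of expected counts. The Rgs4 share, 43.1%, was 42.6% to 43.7%, then 39.9%, 44.0% and 46.4%, and 42.1% by posterior mean TPM. Counts are not corrected for length, which sets their shares apart from those of TPM. For the others the cause was not tested. For 40 single-gene differences, the shift from the TPM value was set against the distance from the middle of the counting interval to its end. The shift was no larger for 40 with either other pseudocount, 34 with TMM and with DESeq2 scaling, 29 in the second table and 9 with spike-in scaling. The intervals were built on TMM-scaled counts, so a TPM difference can lie outside its own interval. That of Gnas, -0.0047, lay below its interval of 0.0030 to 0.053. Of 34 transcript shares 29 moved in the second table, so isoform shares rest on the table used. Pathway genes higher in replicate 2, 15 of 47, were 20 with TMM and 41 with spike-in scaling, alternatives chosen after seeing the data. No paired analysis was possible because there is 1 group. The number of libraries, 2, limits every SD.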
